A study of Mus musculus with 8 samples.

Results

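CD8+ T cells that carried both 4-1BB and LAG3 were compared with CD8+ T cells from the same tumors that carried neither of them and no PD-1, across every gene detected on a mouse bead array. The 4 arrays were chosen by their titles, 2 of CD8+ 4-1BB+ LAG3+ cells (double-positive) and 2 of CD8+ 4-1BB- LAG3- PD-1- cells (receptor-negative), out of 8 arrays in the series. Each population had 1 array from each of 2 experiments, so n = 2 throughout, and paired values are given as experiment 1 and then experiment 2. All cells came from untreated female C57BL/6 mice from Taconic that had carried B16.SIY.dsRed tumors for 14 days. This mouse melanoma line makes a model antigen, SIY, and a fluorescent protein, dsRed. The series' design text gives 10 mice injected in both flanks and tumors that were pooled, and it does not say whether each experiment used that number. A replicate is therefore a pool of tumors, and the p-values measure the spread between pools. The labels give no PD-1 status for the double-positive cells. No source used here gives the age of the mice. The other arrays were 2 of LAG3+ cells without 4-1BB and 2 of PD-1+ cells with neither other receptor.

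4-1BB, a member of the tumor necrosis factor receptor family encoded by Tnfrsf9, is a costimulatory receptor that T cells put on their surface after they meet antigen. LAG3 is an inhibitory receptor related to CD4 that binds MHC class II, and it too appears after activation. In tumors, cells with both receptors are known as antigen-experienced cells, while cells with neither include resting and bystander T cells. The series title names dysfunctional CD8+ T cells in the tumor as its subject.

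Levels are normalized log2 signals, on which 1 unit is a factor of 2, and a change is the double-positive mean minus the receptor-negative mean with its standard error (SE). Signal was detected from 8671 and 7339 of 25697 probes on the double-positive arrays and from 9044 and 6933 on the receptor-negative arrays. Replicates differed by a standard deviation of 0.668 over genes in double-positive cells and 0.830 in receptor-negative cells. The PD-1+ arrays stood apart from the rest, with 6404 and 5522 probes detected and a replicate standard deviation of 1.27. They share the estimate of error with the arrays compared here. In pooled RNA, fewer cells that express a gene and less of its RNA per cell cannot be told apart.

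The genes of the sorting markers were read beside the labels of the 2 populations compared. Lag3 stood at 4.64 and 4.32 in receptor-negative cells, where 1 of the 2 arrays detected it, and at 9.12 and 9.56 in double-positive cells. Tnfrsf9 rose by 3.97 (SE 0.50, limma adjusted p = 0.0228), from 4.71 and 5.16 to 8.96 and 8.84. Both genes encode proteins the cells were sorted on, so their changes are no finding. Lag3 RNA also stood at 8.41 and 8.92 in PD-1+ cells, which were sorted without LAG3. Tnfrsf9 stood at 7.57 and 7.69 in LAG3+ cells and at 6.66 and 8.16 in PD-1+ cells, both sorted without 4-1BB. The RNA of these genes therefore did not follow the sort in every population and is no check of the labels. Pdcd1, the gene of PD-1, was not detected on either receptor-negative array and stood at 4.94 and 5.26 in double-positive cells, at least 1.55-fold higher, and did not pass (limma adjusted p = 0.393). On the arrays of cells sorted as PD-1+ it stood at 5.39 and 4.27, so this dim probe cannot tell the PD-1 status of a population. Cd8b1, the beta chain of CD8, stood at 12.50 and 12.08 and at 12.10 and 12.22, a change of -0.13 with a 95% interval from -0.853 to 0.591. A dimmer probe of Cd8b1 changed by -0.837, with -1.25 in experiment 1 and -0.423 in experiment 2. Cd3e, part of the signalling complex of the T cell receptor, changed by 0.11 with an interval from -0.654 to 0.865. The probe of Cd8a was not detected on any of the 8 arrays. Of 8 CD8 T cell markers on the array, 7 were detected and tested and 0 passed.

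Over all 7893 genes tested, 74 passed a limma adjusted p under 0.05, which is 0.938%. Of these, 32 rose (0.405%) and 42 fell (0.532%) in double-positive cells, and 1072 genes had an unadjusted p under 0.05. The risen genes changed by 1.86 to 5.69 with a median of 3.25, and the fallen genes had a median of -2.97, beside a median of -0.0052 over all genes tested. Of the 32 risen genes, 14 were detected on both receptor-negative arrays, 14 on 1 and 4 on neither. The 14 detected on 1 were Spp1, Igfbp7, Lag3, Ccl3, Asns, Kntc1, Kif15, Tk1, Rrm2, Bcat1, Tyms-ps, Pes1, Exoc3l and Ergic1. For these, 1 of the 2 receptor-negative levels was not detected signal. Of the 42 fallen genes, 28 were detected on both double-positive arrays, 9 on 1 and 5 on neither. Each of the 74 moved the same way in both experiments, and on each the double-positive arrays lay outside the receptor-negative arrays. Both properties are common. Of all 7893 genes tested, 5088 moved the same way in both experiments, 1785 (22.6%) lay wholly higher and 1715 (21.7%) wholly lower. The number called rests on all 4 arrays. It dropped to 0 without receptor-negative array 1, to 1 without receptor-negative array 2, and to 0 without either double-positive array. Without either LAG3+ array it was 17, and without the PD-1+ arrays it was 212, with all 74 among them. With the experiment as a block it was 80, and 57 of the 74 were called again. An adjusted p with the block is given below for genes it takes past 0.05. Grouped by role after the calls were known, 11 of the 74 encode cytokine, costimulatory or inhibitory receptors and 9 act in cell division or make DNA precursors, and the other 54 are of other kinds. A shared direction within such a group describes its called genes and is no test of the class.

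**Figure D1:**
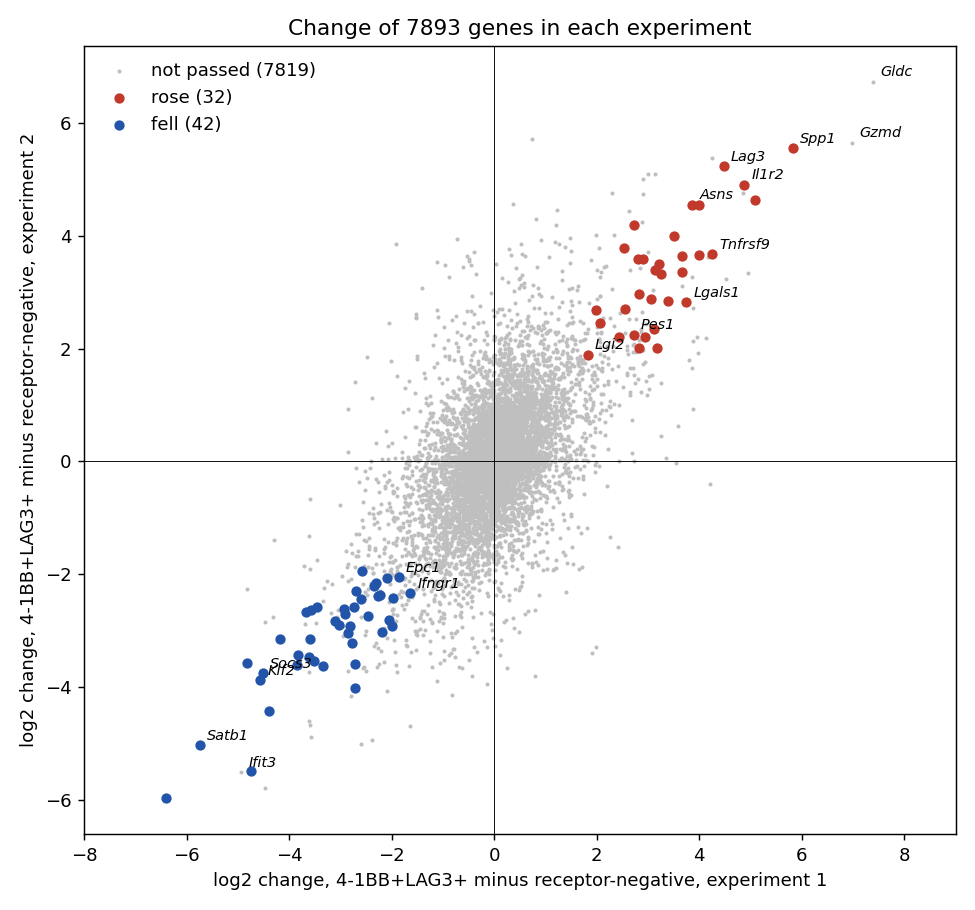
The log2 change in double-positive against receptor-negative cells in experiment 1 (horizontal) and experiment 2 (vertical), for each of 7893 genes as 1 point, with the 32 that rose in red, the 42 that fell in blue and the 7819 that did not pass in grey. Spp1 lies farthest up among the genes called, while Gldc and Gzmd lie farther out than Spp1 and did not pass.

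The 8 called genes of homing, adhesion and G protein-coupled receptors all fell. Gpr183, the receptor for oxysterols that positions lymphocytes, went from 9.05 and 8.78 to 5.95 and 5.94, and the replicates of each population lay close together. Gpr18, a receptor for lipid ligands, went from 9.26 and 9.07 to 5.69 and 6.43. Both fell by about as much, 2.97 (SE 0.35, limma adjusted p = 0.0165) for Gpr183 and 3.10 (SE 0.35, limma adjusted p = 0.0164) for Gpr18. Cnr2, the cannabinoid receptor of immune cells, and Gpr146, an orphan receptor, were detected on both receptor-negative arrays and on neither double-positive array. Cnr2 was at least 7.19-fold lower (limma adjusted p = 0.0164) and Gpr146 at least 8.70-fold lower (limma adjusted p = 0.0267). A dimmer probe of Gpr146 changed by -1.06. Emb, which encodes embigin, a membrane glycoprotein that partners with monocarboxylate transporters, went from 10.04 and 10.43 to 6.42 and 6.96 and fell by 3.54 (SE 0.41, limma adjusted p = 0.0164). Pdlim1, a PDZ and LIM domain protein that binds the actin cytoskeleton, went from 10.46 and 10.58 to 6.95 and 7.04 (change -3.53, SE 0.33, limma adjusted p = 0.0130). Sema4f, a membrane semaphorin, stood at 6.93 and 7.19 and at 4.74 and 4.17, where 1 of 2 arrays detected it, and fell by 2.61 (limma adjusted p = 0.0255). In a broader list of 64 genes of G protein signalling, 41 were tested, 0 rose and 3 fell, where 0.532% of all genes tested fell. The median change of this list was -0.0969. The genes of the list with the highest changes, Rgs16 at 4.15 (limma adjusted p = 0.0527) and Rgs8 at 3.56 (limma adjusted p = 0.227), did not pass with all 8 arrays in the fit and passed without the PD-1+ arrays (0.0349 and 0.0138). The list of adhesion and surface glycoproteins had 58 members tested, of which 0 rose and 3 fell, among them Emb and the early activation antigen Cd69. Within it, Nrp1, the neuropilin-1 receptor, stood at 4.89 and 5.44 in receptor-negative cells and 9.41 and 8.67 in double-positive cells and did not pass (change 3.88, limma adjusted p = 0.263, without the PD-1+ arrays 0.0143).

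Both chains of the interferon-gamma receptor fell, as did receptor chains for other cytokines. Ifngr2, the signalling chain of the interferon-gamma receptor, stood at 8.22 and 8.13 in receptor-negative cells and at 5.47 and 5.55 in double-positive cells. Ifngr1, the ligand-binding chain, stood at 9.37 and 9.62 and at 7.74 and 7.28. Replicates of each chain lay close together and the populations did not overlap. Ifngr2 fell by 2.66 (SE 0.31, limma adjusted p = 0.0164), and Ifngr1 by 1.99 (SE 0.32, limma adjusted p = 0.0463, with the block 0.0566). The ligand gene Ifng lay just outside the threshold in the other direction, at a change of 2.49 (SE 0.41, limma adjusted p = 0.0508). Il7r, the receptor chain for the survival cytokine interleukin-7, went from 9.74 and 8.60 to 4.92 and 5.02 and fell by 4.20 (SE 0.49, limma adjusted p = 0.0164). Il11ra1, the interleukin-11 receptor chain, was detected on both receptor-negative arrays and on neither double-positive array, at least 6.62-fold lower (limma adjusted p = 0.0130). Socs3, which restrains cytokine receptor signalling through gp130, went from 11.41 and 10.85 to 6.89 and 7.09 (change -4.14, SE 0.42, limma adjusted p = 0.0130). Cd274, which encodes the PD-1 ligand PD-L1, went from 7.12 and 6.61 to 4.78 and 4.40 and fell by 2.28 (limma adjusted p = 0.0463). Cd69, which holds lymphocytes in tissue, was bright in every population and fell from 12.10 and 11.48 to 8.63 and 8.89 (change -3.03, limma adjusted p = 0.0164). Klra7, one of the Ly49 receptors for MHC class I, fell by 3.17 (limma adjusted p = 0.0165). The Ly49 genes are near-identical, so its probe may read more than 1 of them.

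Besides the sorting markers, 2 receptors rose. Il1r2, the decoy receptor that binds interleukin-1 without signalling, was detected on neither receptor-negative array and stood at 9.18 and 9.16 in double-positive cells, at least 25.9-fold higher (limma adjusted p = 0.0158). Tnfrsf4, which encodes the costimulatory receptor OX40, went from 4.39 and 5.24 to 8.38 and 8.91 (change 3.83, SE 0.40, limma adjusted p = 0.0135).

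**Figure D2:**
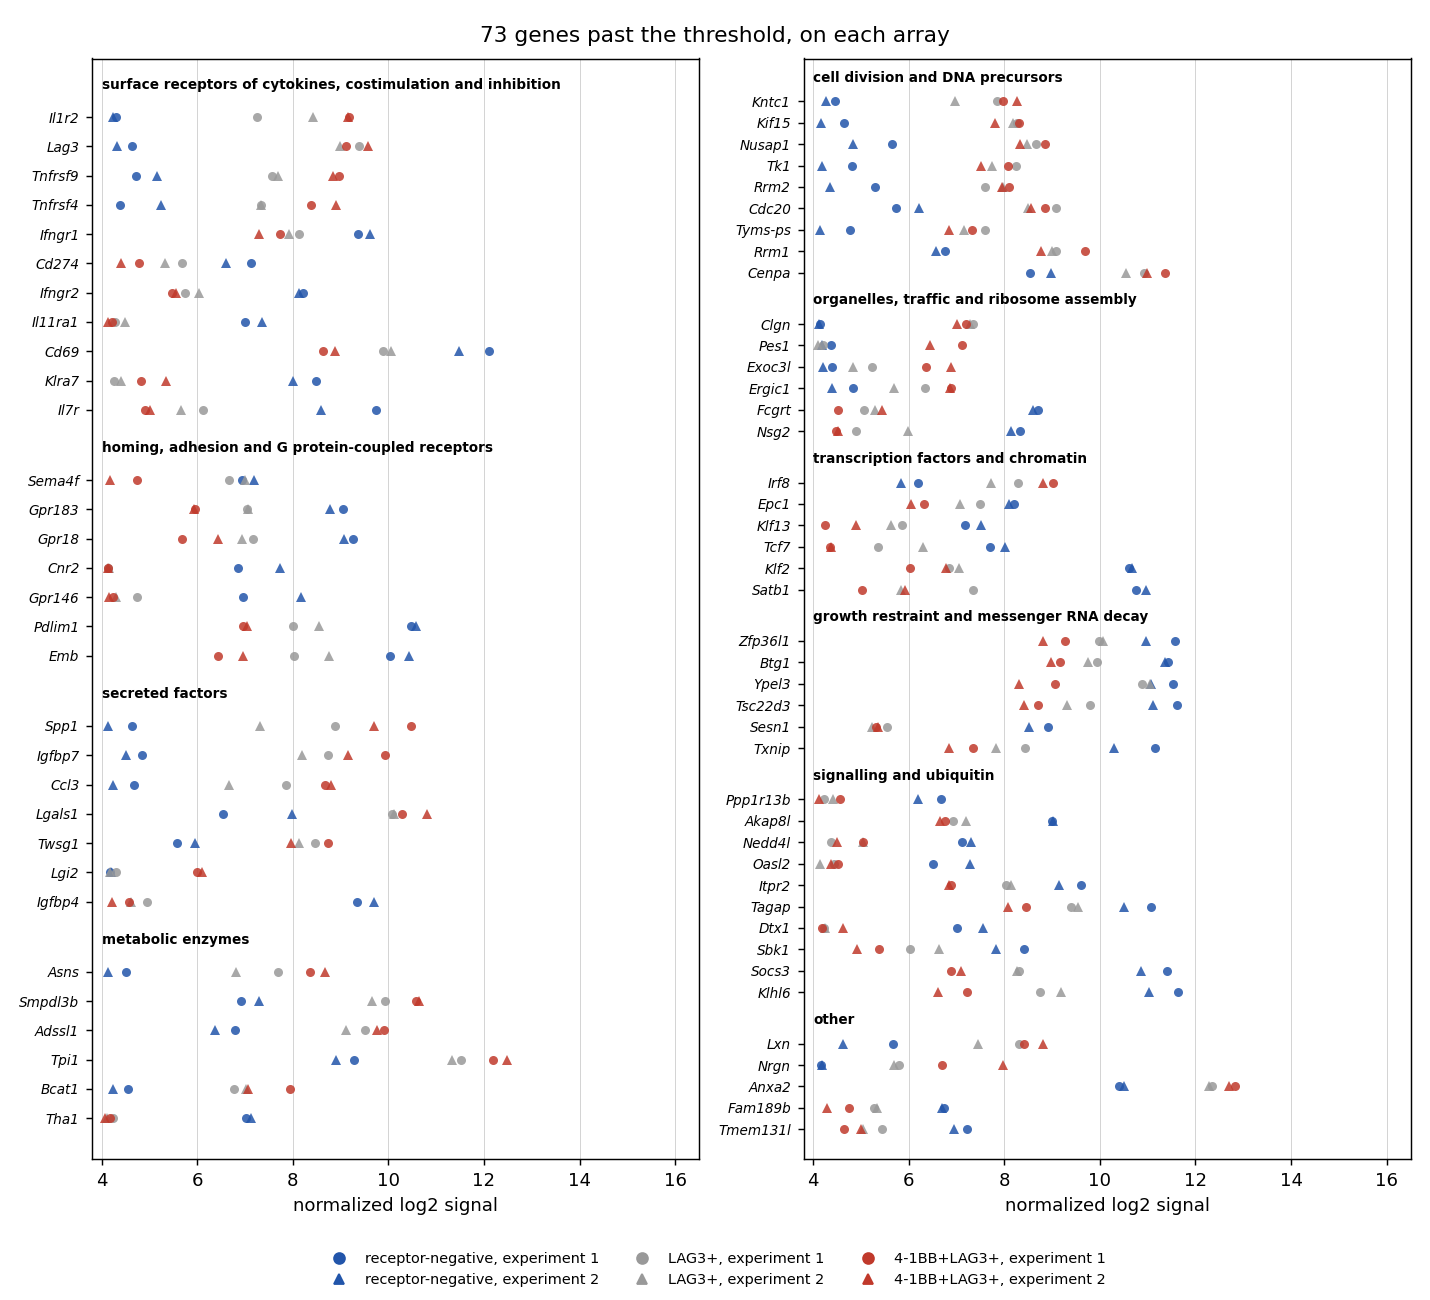
Normalized log2 signal (horizontal) of 73 of the 74 genes past the threshold, each in a row, on the receptor-negative (blue), LAG3+ (grey) and double-positive (red) arrays, with circles for experiment 1 and triangles for experiment 2. Red and blue points are apart in every row, and the grey LAG3+ points of Pes1, Lgi2, Sema4f and Ypel3 lie at or near the blue ones.

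Secreted factors made up 7 of the 74, of which 6 rose. Spp1, the gene of the matrix protein osteopontin, stood at 4.64 and 4.14 in receptor-negative cells, where 1 array detected it, and at 10.47 and 9.70 in double-positive cells. It rose by 5.69, the largest rise, with the widest error of the genes called (SE 0.78, limma adjusted p = 0.0309). Igfbp7, which belongs to the insulin-like growth factor binding proteins, went from 4.84 and 4.51 to 9.93 and 9.15 and rose by 4.86 (SE 0.39, limma adjusted p = 0.0130). The related Igfbp4 went the opposite way, from 9.33 and 9.71 to 4.58 and 4.22 (change -5.12, SE 0.45, limma adjusted p = 0.0130), with 1 of 2 double-positive arrays still detecting it. Ccl3, an inflammatory chemokine, went from 4.68 and 4.24 to 8.68 and 8.79 (change 4.27, limma adjusted p = 0.0135). Lgals1, which encodes the glycan-binding galectin-1, was well detected everywhere and went from 6.54 and 7.98 to 10.29 and 10.80. Its receptor-negative replicates differed by more than those of most genes here, and it rose by 3.29 (SE 0.50, limma adjusted p = 0.0397). Twsg1, a secreted modulator of bone morphogenetic proteins, rose by 2.59 (limma adjusted p = 0.0386, with the block 0.0541). Lgi2, a secreted leucine-rich repeat protein, was detected only in double-positive cells of these 4 arrays, at 6.003 and 6.09. It was at least 2.98-fold higher and had the narrowest error of the 74 (SE 0.28, limma adjusted p = 0.0406, with the block 0.0519).

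Osteopontin is also made by macrophages and melanoma cells, so the markers of other cells are given beside it. Summed signals of the melanoma markers, in normalized units with the offset removed, were 136 and 105 on the receptor-negative arrays and 202 and 2293 on the double-positive arrays. Of 10 on the array, 6 were tested and 0 passed, and Tyr, Mitf, S100b and Trpm1 were not detected on any of the 4 arrays. Of these 4 arrays the sum was high on double-positive array 2, where Gpnmb stood at 10.02 and Pmel at 9.45, and on the LAG3+ array of experiment 2 they stood at 10.39 and 8.63. The change of Spp1 was 5.83 in experiment 1 and 5.56 in experiment 2, and the part of melanoma cells or macrophages in it was not tested. Macrophage markers summed to 90.5 and 204 in receptor-negative cells and to 62.0 and 59.0 in double-positive cells, and 0 of 8 tested passed. Of 17 on the array, 7 were detected in receptor-negative and 4 in double-positive cells. Lyz2 and Cd14 were detected on all 4 arrays, Lyz2 at 5.23 and 6.69 and at 4.55 and 4.92. C1qa, C1qb, C1qc, Mrc1 and Itgam were not detected on any of the 4 arrays. Dendritic cell and MHC class II markers summed to 750 and 240 against 252 and 125, with 0 of 5 tested passing and Itgax, Flt3 and Xcr1 not detected. B cell markers summed to 100 and 43.8 against 10.1 and 12.0, from Cd79b alone (6.71 and 5.65 in receptor-negative cells), while Cd79a, Ms4a1 and Pax5 were not detected. Fibroblast and endothelial markers summed to 123 and 127 against 24.9 and 26.9, with Pecam1 the brightest in receptor-negative cells, and natural killer cell markers to 120 and 63.3 against 212 and 235. CD4 and regulatory T cell markers summed to 516 and 510 against 594 and 1497, with Ctla4 the brightest on each array, neutrophil markers to 12.9 and 102 against 12.5 and 12.4, and erythroid markers to 16.6 and 10.7 against 6.0 and 5.5. None of these lists had a gene past the threshold. The B cell list moves with Cnr2, Gpr183 and Klhl6, which B cells also express, and its part in their changes was not tested.

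Metabolic enzymes gave 6 of the 74, of which 5 rose. Asns, asparagine synthetase, went from 4.50 and 4.13 to 8.37 and 8.68 and rose by 4.21 (SE 0.42, limma adjusted p = 0.0130), and its second detected probe changed by 2.12. Tpi1, the glycolytic enzyme triosephosphate isomerase, was the brightest of these, going from 9.27 and 8.90 to 12.18 and 12.48. Its change of 3.25 (SE 0.31, limma adjusted p = 0.0130) was matched by 3.28 on a second probe. Adssl1, an adenylosuccinate synthase of purine synthesis, went from 6.79 and 6.38 to 9.91 and 9.77 (change 3.26, SE 0.47, limma adjusted p = 0.0331), with 3.13 on a second probe. Smpdl3b, a membrane-anchored lipid phosphodiesterase, had closely spaced replicates, 6.92 and 7.29 against 10.59 and 10.64, and rose by 3.51 (SE 0.31, limma adjusted p = 0.0130). Bcat1, the cytosolic transaminase of branched-chain amino acids, rose by 3.12 (limma adjusted p = 0.0315, with the block 0.0518), and a dimmer probe changed by -0.0602. The enzyme that fell was Tha1, threonine aldolase, detected at 7.01 and 7.12 in receptor-negative cells and on neither double-positive array, at least 6.15-fold lower (limma adjusted p = 0.0130).

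The lists around these enzymes held few genes past the threshold or none. Of 19 tested genes of amino acid synthesis and the ATF4 response, Asns alone rose, 0 fell, and the median change was 0.0186. Amino acid transport (9 tested, median 0.385), the citrate cycle (18, median 0.154), redox and glutathione (23, median 0.0961) and mitochondrial import and dynamics (18, median 0.410, with 13 higher) had 0 genes past the threshold each, beside a median of -0.0052 over all genes tested. Of all 7893 genes tested, 3913 were higher. Gldc, the glycine decarboxylase that feeds the folate cycle, had the largest change of any gene, and it did not pass with all 8 arrays in the fit. It was detected on neither receptor-negative array and stood at 11.53 and 10.93 in double-positive cells, at least 108-fold higher (SE 1.36, limma adjusted p = 0.0735). Its other probe changed by 1.76. Slc17a6, a vesicular glutamate transporter best known from neurons, likewise went from not detected to 9.01 and 8.98, at least 22.9-fold higher (adjusted p = 0.0693 with limma). Without the PD-1+ arrays both passed, with a limma adjusted p of 0.0045 for Gldc, whose SE was then 0.353, and of 0.00916 for Slc17a6. Slc2a3, the glucose transporter GLUT3, stood at 7.20 and 6.39 and 9.66 and 9.02 and did not pass (change 2.54, limma adjusted p = 0.0734). It passed with the experiment as a block (limma adjusted p = 0.0328) and without the PD-1+ arrays (0.0352).

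DNA precursor synthesis and division genes that passed all rose, 9 of 9. Rrm1 and Rrm2, the subunits of ribonucleotide reductase, went from 6.76 and 6.58 to 9.70 and 8.78 and from 5.29 and 4.36 to 8.10 and 7.95. Their changes were 2.57 (SE 0.39, limma adjusted p = 0.0406) and 3.20 (SE 0.41, limma adjusted p = 0.0228). Thymidine kinase Tk1 rose by 3.28 (limma adjusted p = 0.0164), with 1.27 on a dimmer probe. A thymidylate synthase pseudogene, Tyms-ps, rose by 2.63 (limma adjusted p = 0.0315), and its probe may read the parent gene Tyms. The nucleotide synthesis list had 29 members tested, of which 4 rose (Rrm1, Rrm2, Tk1 and Adssl1) and 0 fell, with a median of 0.445. Over all genes tested 0.405% rose and 0.532% fell. The division genes were Kntc1 of the kinetochore (3.76), the kinesin Kif15 (3.65, with the block an adjusted p of 0.0629), the spindle protein Nusap1 (3.36), the anaphase activator Cdc20 (2.73) and the centromeric histone Cenpa (2.42). Cenpa was the brightest, going from 8.53 and 8.98 to 11.36 and 10.99. None of 48 tested DNA repair genes passed. Fancd2 among them (change 2.35, limma adjusted p = 0.0606) passed with the block (0.0483) and without the PD-1+ arrays (0.0448).

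**Figure D3:**
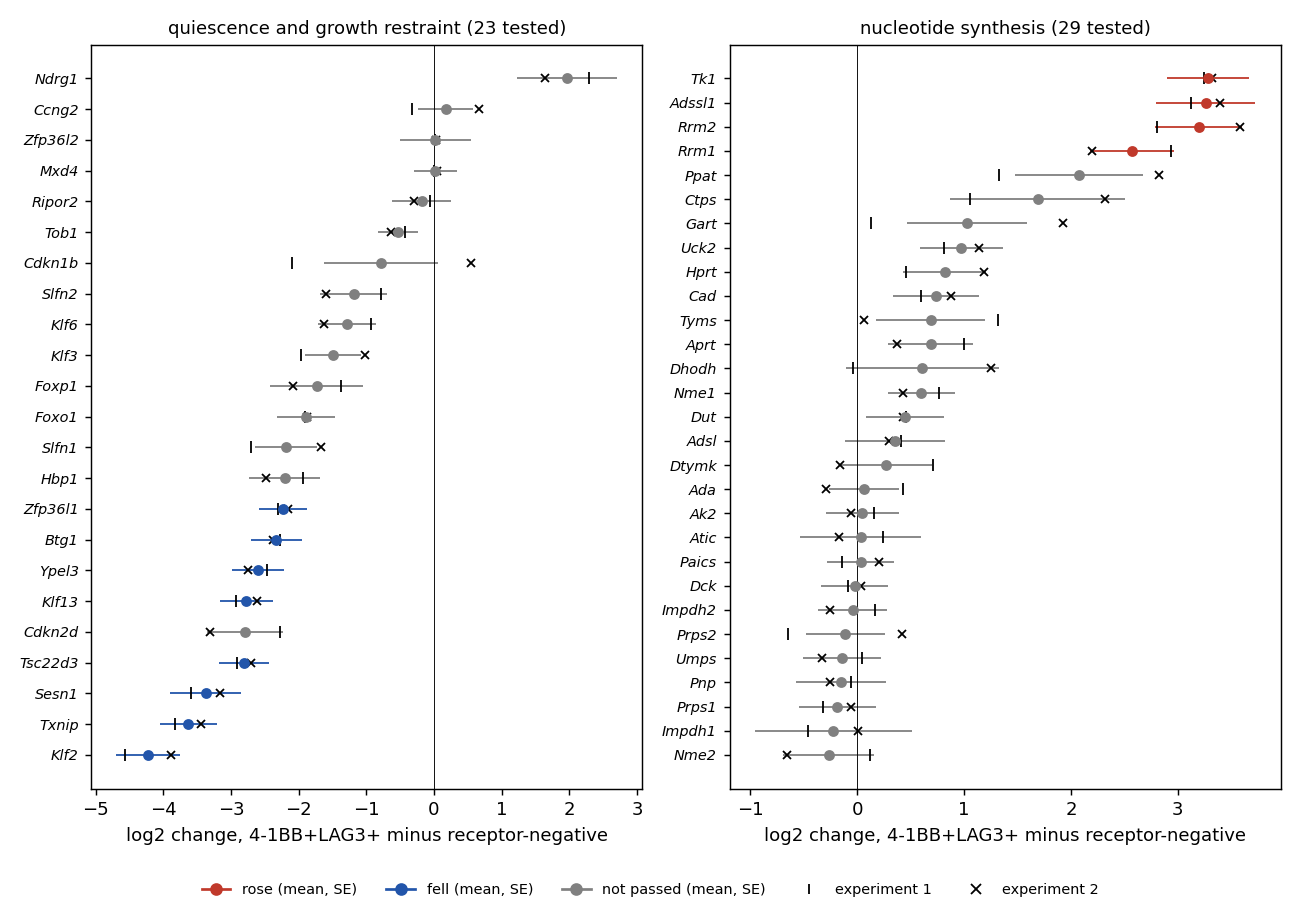
Log2 change (horizontal) of each tested member of the quiescence and growth restraint list (23 genes, left) and the nucleotide synthesis list (29 genes, right), as the mean with its SE (circles with bars) and the change in experiment 1 (vertical ticks) and experiment 2 (crosses). On the left 8 genes fell and Klf2 lies lowest, and on the right 4 rose and Tk1 lies highest.

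Genes that restrain T cell growth and keep resting T cells quiescent formed the list with the lowest median. The list was chosen with earlier results of these data known, so its rank is a description and no test. Of 34 genes, 33 were on the array and 23 passed the filter on detection, of which 8 fell, 0 rose and 15 did not pass. Over all 7893 genes tested 0.532% fell. The median change was -1.89 (-1.97 in experiment 1 and -1.87 in experiment 2), beside -0.0052 over all genes tested, and it ranged from -2.20 to -1.16 over the alternative settings. Klf2, the transcription factor that drives expression of homing receptors, went from 10.60 and 10.66 to 6.03 and 6.78 and fell by 4.23 (SE 0.47, limma adjusted p = 0.0164). Txnip, which inhibits thioredoxin and glucose uptake, went from 11.16 and 10.29 to 7.34 and 6.85 (change -3.63, SE 0.42, limma adjusted p = 0.0164). Sesn1, a stress-induced inhibitor of mTORC1, went from 8.92 and 8.52 to 5.32 and 5.36 and fell by 3.38 (limma adjusted p = 0.0451, with the block 0.0615). Tsc22d3, the glucocorticoid-induced leucine zipper GILZ, went from 11.61 and 11.12 to 8.70 and 8.42 (change -2.80, limma adjusted p = 0.0267), and a dimmer probe changed by -0.285. Klf13, another Krüppel-like factor, fell by 2.77 (limma adjusted p = 0.0315), and 1 of 2 double-positive arrays detected it. Ypel3, a small protein that slows growth, was bright at 11.53 and 11.06 and fell to 9.06 and 8.32 (change -2.61, limma adjusted p = 0.0355), while a dim probe of it changed by 0.0800. Btg1, an antiproliferative factor that promotes messenger RNA decay, fell by 2.33 from 11.43 and 11.36 (limma adjusted p = 0.0463, with the block 0.0615), and its other detected probes changed by -1.74 and -1.33. Zfp36l1, which binds AU-rich elements and destabilizes messenger RNA, fell by 2.23 (limma adjusted p = 0.0451), with -2.13 on a second probe. Foxo1, the forkhead factor upstream of Klf2 and Il7r in T cells, did not pass (change -1.89, SE 0.43, limma adjusted p = 0.106), nor did Bcl2, the survival factor, at a change of -3.66 (SE 0.89, limma adjusted p = 0.121). Both passed without the PD-1+ arrays, at limma adjusted p = 0.0457 and 0.0361.

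Since several of these genes are known forkhead targets, promoter sequences were searched for 7 short motifs on both strands, chosen with the calls known. The windows are 250 bases before to 50 after a RefSeq gene start on GRCm38.p6, and 64 of the 74 genes had at least 1. The forkhead motif GTAAACA was in a promoter of 7 of the 37 fallen genes with one (18.9%), of 0 of 27 risen genes, and of 187 of 6294 tested genes (2.97%). It was in 3.65% of all 32851 promoters. The 7 genes were Txnip, Sesn1, Btg1, Ypel3, Tcf7, Fcgrt and Gpr146, and no promoter of Klf2, Il7r or Socs3 had it. The other motifs were in these shares of fallen, risen and tested genes. The cell cycle homology region TTTGAA was in 18.9%, 22.2% and 14.8%. The STAT motif TTCNNGGAA was in 5.41%, 11.1% and 5.24%, and the interferon motif GAAANNGAA in 8.11%, 11.1% and 8.91%. The E2F motif, searched as TTTCCCGC, TTTGGCGC and TTTCGCGC, was in 1 risen gene, Kif15, and in 4.00% of tested genes. The amino acid response motif TGATGNAA was in 1 risen gene, Asns, and in 2.92% of tested genes. The cAMP motif TGACGTCA was in no called gene and in 3.65% of tested genes. In all promoters the shares were 17.9% for TTTGAA, 4.81% for TTCNNGGAA, 8.56% for GAAANNGAA, 1.84% for E2F, 3.97% for TGATGNAA and 1.79% for TGACGTCA. No motif was searched as part of another, and a match is a description of letters in a window and not of a bound site. The promoters of 4 fallen genes with the forkhead motif and of Asns, the gene of amino acid synthesis that rose, are printed 5′ to 3′ on the gene's strand to show where the motif (capitals) lies among the other bases. They are Txnip at chr3:96557707-96558006 (plus strand), Sesn1 at chr10:41810324-41810623 (plus), Btg1 at chr10:96616751-96617050 (plus), Fcgrt at chr7:45103773-45104072 (minus) and Asns at chr6:7693160-7693459 (minus).
Txnip: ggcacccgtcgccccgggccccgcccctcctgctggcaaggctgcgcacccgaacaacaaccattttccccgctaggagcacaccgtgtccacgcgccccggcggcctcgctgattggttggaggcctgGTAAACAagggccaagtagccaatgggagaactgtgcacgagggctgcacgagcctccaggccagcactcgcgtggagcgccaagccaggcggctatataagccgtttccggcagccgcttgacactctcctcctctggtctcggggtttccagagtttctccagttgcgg
Sesn1: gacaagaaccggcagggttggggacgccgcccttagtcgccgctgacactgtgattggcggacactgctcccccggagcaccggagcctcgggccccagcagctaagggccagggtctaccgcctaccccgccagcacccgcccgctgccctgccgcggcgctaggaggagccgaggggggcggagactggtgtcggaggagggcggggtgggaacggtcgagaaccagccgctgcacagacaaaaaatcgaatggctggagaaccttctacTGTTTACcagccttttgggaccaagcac
Btg1: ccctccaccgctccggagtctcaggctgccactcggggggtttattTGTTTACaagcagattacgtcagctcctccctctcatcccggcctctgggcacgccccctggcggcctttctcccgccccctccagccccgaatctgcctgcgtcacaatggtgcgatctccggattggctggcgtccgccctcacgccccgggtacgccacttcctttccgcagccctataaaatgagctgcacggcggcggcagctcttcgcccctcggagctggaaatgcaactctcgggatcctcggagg
Fcgrt: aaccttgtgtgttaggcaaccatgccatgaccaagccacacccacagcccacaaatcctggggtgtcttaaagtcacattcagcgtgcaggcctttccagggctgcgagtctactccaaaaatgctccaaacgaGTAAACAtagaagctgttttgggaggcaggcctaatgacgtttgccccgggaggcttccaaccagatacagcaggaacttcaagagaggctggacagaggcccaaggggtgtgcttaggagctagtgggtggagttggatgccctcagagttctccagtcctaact
Asns: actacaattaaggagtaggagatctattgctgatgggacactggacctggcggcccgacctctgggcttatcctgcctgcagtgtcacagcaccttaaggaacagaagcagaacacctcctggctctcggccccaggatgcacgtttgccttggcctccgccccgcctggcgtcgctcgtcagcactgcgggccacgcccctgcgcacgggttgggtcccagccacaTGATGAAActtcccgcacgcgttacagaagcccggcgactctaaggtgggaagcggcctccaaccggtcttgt
In Txnip, Btg1 and Fcgrt the motif lay before the gene start, in Btg1 as its reverse complement. In Sesn1 it lay after the start, also as the reverse complement, and a second Sesn1 promoter in the table had none.

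Among transcription factors and chromatin proteins, 5 of the 6 called genes fell. Satb1, a chromatin organizer needed in T cell development, went from 10.76 and 10.96 to 5.02 and 5.92 and fell by 5.39 (SE 0.63, limma adjusted p = 0.0164). Tcf7, which encodes TCF-1, the factor of naive and stem-like T cells, was detected at 7.70 and 8.01 in receptor-negative cells and on neither double-positive array. It was at least 10.6-fold lower (limma adjusted p = 0.0164), and its second probe changed by -3.06. Epc1, a subunit of the NuA4 acetyltransferase complex, fell by 1.96 (limma adjusted p = 0.0463, with the block 0.0520), with -2.28 on a second probe. The factor that rose was Irf8, an interferon regulatory factor, from 6.20 and 5.85 to 9.02 and 8.81 (change 2.89, SE 0.35, limma adjusted p = 0.0181). Of 44 chromatin modifiers tested, Satb1 alone passed, and the list's median was -0.0682. Of 55 zinc finger, Ets, Ikaros and other factors tested, Irf8 alone passed, and the median was -0.122.

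The 10 called genes grouped under signalling and ubiquitin all fell. Klhl6, a BTB-kelch adaptor of a ubiquitin ligase, was among the brightest, going from 11.63 and 11.02 to 7.23 and 6.60 (change -4.41, SE 0.41, limma adjusted p = 0.0130), and a second probe gave -4.41. Tagap, a GTPase-activating protein of T cell activation, went from 11.06 and 10.51 to 8.46 and 8.07 (change -2.53, limma adjusted p = 0.0267), with -2.97 on a second probe. Itpr2, the inositol trisphosphate receptor that releases calcium from the endoplasmic reticulum, went from 9.60 and 9.15 to 6.89 and 6.85 and fell by 2.50 (limma adjusted p = 0.0315). Dtx1, the Deltex ubiquitin ligase of the Notch pathway linked to T cell anergy, fell by 2.87 (SE 0.39, limma adjusted p = 0.0288), and 1 double-positive array detected it. Sbk1, a kinase, went from 8.41 and 7.82 to 5.37 and 4.93 (change -2.96, limma adjusted p = 0.0338, with the block 0.0525). Nedd4l, a HECT ubiquitin ligase, fell by 2.44 (limma adjusted p = 0.0451, with the block 0.0566). Akap8l, a nuclear relative of the A-kinase anchoring proteins, fell by 2.29 (limma adjusted p = 0.0397, with the block 0.0525). Ppp1r13b, which encodes the p53-binding protein ASPP1, fell by 2.08 (limma adjusted p = 0.0485, with the block 0.0530). Oasl2, an interferon-induced 2'-5' oligoadenylate synthetase-like gene, fell by 2.45 (limma adjusted p = 0.0355, with the block 0.0520), and a dim second probe changed by -0.390. Ifit3, another interferon-induced gene, stood at 10.60 and 9.83 and at 5.66 and 4.31 and did not pass (change -5.23, limma adjusted p = 0.122). Pathway lists had few calls or none, and of all 7893 genes tested 3980 were lower. Of 31 NF-kappaB genes tested, 25 were lower and 0 passed (median -0.853), and of 17 TGF-beta genes 14 were lower and 0 passed (median -0.894). With members undetected in 1 population set at their bounds, these medians were -0.763 and -0.844. Notch signalling had 13 tested, with Dtx1 fallen and a median of -0.695, and Wnt signalling 14, with Tcf7 fallen and a median of -0.358.

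**Figure D4:**
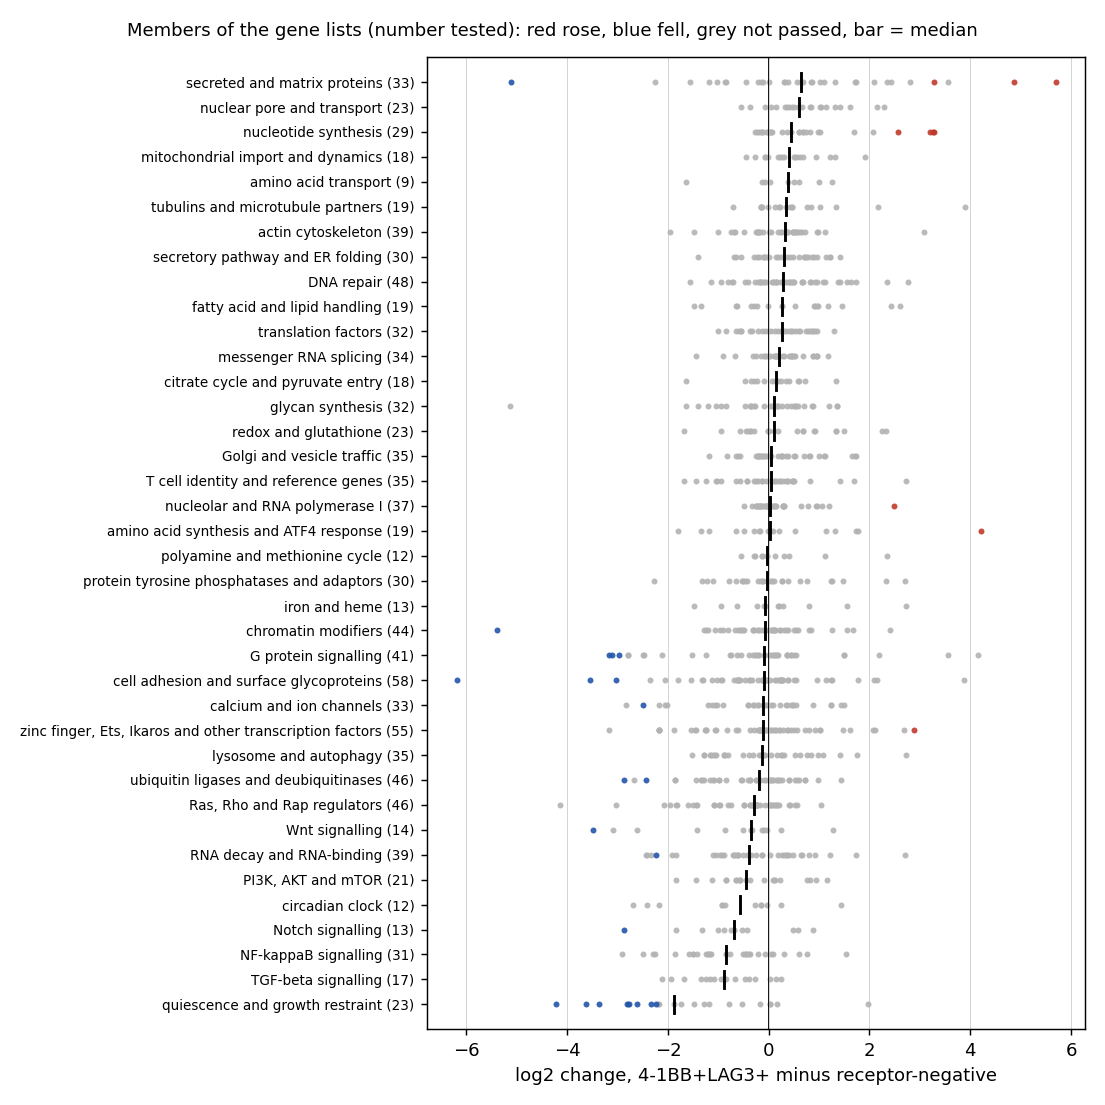
Log2 change in double-positive against receptor-negative cells (horizontal) of each tested member of the 38 gene lists, 1 list a row with its number of tested genes, sorted by median (black bars). Quiescence and growth restraint has the lowest median and the most blue (fallen) points, and the secreted and nucleotide synthesis lists hold most of the red (risen) points. The lists were chosen with earlier results of these data known.

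Genes of organelles, traffic and ribosome assembly divided into 4 that rose and 2 that fell. Clgn, which encodes the endoplasmic reticulum chaperone calmegin, best known from the testis, was detected on neither receptor-negative array. It stood at 7.21 and 7.003 in double-positive cells, at least 6.21-fold higher (SE 0.28, limma adjusted p = 0.0130). Pes1, pescadillo, which is needed to mature the large ribosomal subunit, went from 4.38 and 4.19 to 7.11 and 6.44 (change 2.49, SE 0.34, limma adjusted p = 0.0289). It was the only called gene of 37 nucleolar and RNA polymerase I genes tested, whose median was 0.0231. Exoc3l, a relative of the exocyst subunit Exoc3, went from 4.39 and 4.20 to 6.36 and 6.89 and rose by 2.34 (limma adjusted p = 0.0331). Ergic1, a protein of the compartment between endoplasmic reticulum and Golgi, rose by 2.26 (limma adjusted p = 0.0451, with the block 0.0531). Fcgrt, the neonatal Fc receptor that recycles immunoglobulin G and albumin, went from 8.70 and 8.59 to 4.51 and 5.45 and fell by 3.67 (limma adjusted p = 0.0355, with the block 0.0566). Nsg2, an endosomal protein best known from neurons, fell by 3.73 from 8.32 and 8.14 (limma adjusted p = 0.0164). In the lists of secretory folding (30 tested), Golgi traffic (35), lysosome and autophagy (35), splicing (34) and translation factors (32), 0 genes passed. None of the 23 tested nuclear pore genes passed either, though 20 of them were higher and their median was 0.593. Of all 7893 genes tested, 3913 were higher.

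The 5 remaining genes were Lxn, Nrgn, Anxa2, Fam189b and Tmem131l. Anxa2, which encodes the calcium-dependent membrane-binding protein annexin A2, was bright everywhere and rose by 2.32, from 10.41 and 10.50 to 12.83 and 12.71 (SE 0.28, limma adjusted p = 0.0185). Lxn, the carboxypeptidase inhibitor latexin, went from 5.68 and 4.62 to 8.41 and 8.81 and rose by 3.46 (SE 0.48, limma adjusted p = 0.0315). Nrgn, which encodes the calmodulin-binding neurogranin, was not detected in receptor-negative cells and stood at 6.70 and 7.97, at least 7.26-fold higher (limma adjusted p = 0.0331). Fam189b fell by 2.20 (limma adjusted p = 0.0491, with the block 0.0627) and lay closest to the threshold, and Tmem131l fell by 2.27 (limma adjusted p = 0.0440, with the block 0.0519). The first genes beyond the threshold were Irf1 at a change of -1.88, Ifng at 2.49 and Klrh1 at 2.61, each with limma adjusted p = 0.0508.

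Several genes with changes larger than those of most called genes did not pass with all 8 arrays in the fit. Of the 7893 genes tested, 233 were detected on both double-positive arrays and neither receptor-negative array, and 4 of these rose by the test. In the other direction there were 246, about as many, of which 5 fell. The cytotoxic granule proteases Gzmd and Gzme were among the 233. Gzmd stood at 11.21 and 9.85 in double-positive cells, at least 66.5-fold higher (SE 1.07, limma adjusted p = 0.0530), and passed with the block (0.0322). Its dimmer probe changed by 0.827. Gzme stood at 8.08 and 6.90, at least 8.10-fold higher (adjusted p = 0.0712 with limma, and with the block 0.0328), and these granzyme genes are alike enough for probes to read more than 1. Havcr2, the inhibitory receptor TIM-3, stood at 5.45 and 4.17 and at 9.71 and 9.56 (change 4.82, SE 1.30, limma adjusted p = 0.161). Tff1, a trefoil peptide of mucus-secreting epithelium, stood at 7.30 and 9.27 and was higher by at least 14.1-fold (adjusted p = 0.0774 with limma). On the low side, St6gal1, the sialyltransferase that caps N-glycans, stood at 10.52 and 9.94 in receptor-negative cells and at 6.06 and 4.15 in double-positive cells (change -5.13, SE 0.91, limma adjusted p = 0.0627). Itgae, the CD103 integrin chain of tissue-resident T cells, stood at 9.11 and 9.13 and at 5.53 and 4.24 (change -4.24, limma adjusted p = 0.104). Itgb7, the beta-7 chain it pairs with, stood at 11.02 and 10.84 and at 6.69 and 8.08 (change -3.54, limma adjusted p = 0.0627, with the block 0.0335). Nuak2, a kinase of the AMPK family, was not detected in double-positive cells and was at least 7.95-fold lower (limma adjusted p = 0.104). Without the PD-1+ arrays these 8 genes passed, at limma adjusted p = 0.0102 for Gzmd, 0.0339 for Gzme, 0.0143 for Havcr2, 0.0334 for Tff1, 0.0325 for St6gal1, 0.0375 for Itgb7 and 0.0138 for both Itgae and Nuak2.

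The experiments differed widely on some genes. Mterf4, a mitochondrial ribosome assembly factor, changed by 1.90 in experiment 1 and -3.40 in experiment 2, and Hnrnpdl, an RNA-binding protein, by -2.71 and 1.41. A second probe of Hnrnpdl changed by -1.40 and -0.277, lower in both experiments. Dusp4, a phosphatase of MAP kinases, changed by 0.37 and 4.57, the same way by unequal amounts. The surface protein Thy1 stood at 11.74 and 11.58 and at 11.89 and 11.88, with an interval of the change from -0.479 to 0.920. Cd96, a receptor for nectin-family ligands, changed by -0.0175, with an interval from -0.748 to 0.713. The brightest genes in double-positive cells were Laptm5, Rps26, Eef1a1, Rpl23 and Atp5b, with changes between -0.0347 and 0.778 and 0 passing, and those of Laptm5, Rps26 and Eef1a1 turned below 0 with median scaling.

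To see what the double-positive cells showed beyond LAG3+ cells without 4-1BB, their arrays were compared directly. With limma 0 of 7893 genes passed (0%), with 208 at an unadjusted p under 0.05 and a smallest adjusted p of 0.845. The median difference, double-positive minus LAG3+, was 0.716 among the 32 genes that had risen and -0.931 among the 42 that had fallen. Over all genes tested it was 0.0111. The called genes were selected on the same double-positive arrays, which pushes their medians in these directions, so the medians are no test. The genes below were picked after their values were seen. Pes1 stood at 4.22 and 4.11 in LAG3+ cells, at the level of receptor-negative cells, and differed from double-positive cells by 2.61 (SE 0.34). Sema4f stood at 6.66 and 7.004 and Ypel3 at 10.87 and 11.06 in LAG3+ cells, differing from double-positive cells by -2.38 (SE 0.34) and -2.28 (SE 0.38). Lgi2 was at 4.30 and 4.17. Other genes had small differences between the 2 LAG3-bearing populations, and with 2 arrays in each, equal levels were not shown. Clgn stood at 7.33 and 7.29 in LAG3+ cells (difference -0.21), Tk1 at 8.25 and 7.74 (difference -0.20), Nusap1 at 8.65 and 8.48 (difference 0.0228), Tha1 at 4.23 and 4.11 (difference -0.0495) and Sesn1 at 5.55 and 5.23 (difference -0.0495). Each of these differences has the SE of the gene's main change, and none passed.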

How the data were processed

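The unnormalized intensities of 25697 probes and their detection p-values, per the file headers from the scanner software, were deposited by the authors. The authors' normalized intensities were used as an alternative, and no source used here says how they were made. From these, log2 values were made with neqc in limma 3.58.1 (R 4.3.3), which corrects background, adds an offset (16) and quantile-normalizes. A gene was represented by its brightest probe and tested if that was detected (p under 0.05) on at least 2 of 8 arrays, which kept 7893 of 17830 named genes and left out 9937. Of the probes, 23962 were named by gene identifier through RefSeq (GRCm38.p6), 1038 by accession, and 681 and 16 kept deposited names. The coordinates given are those of RefSeq promoters.

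Arrays were grouped by title. limma's lmFit and eBayes fitted 1 mean per population over all 8 arrays (4 residual and 2.98 prior degrees of freedom), with two-sided p-values and Benjamini-Hochberg adjustment over all genes tested. An exact test of 2 arrays against 2 cannot go below p = 0.333. The median SE was 0.448, and the number of arrays limits the precision. The titles number the experiments, and replicate differences of the double-positive and receptor-negative arrays correlated over genes (r = 0.208), so the experiment was taken to pair the arrays and also fitted as a block. Where both arrays of a population missed a gene, its fold is a bound, given as "at least" a fold over the lowest detected signal. List medians use fitted changes.

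Members, lists and motifs were chosen with earlier results of these data known. The rule for named genes took each gene past the threshold, the sorting markers, the 2 largest changes of each list, the largest changes that did not pass, genes called with the block and not without it, genes on which the experiments differ, the brightest genes and those with narrow intervals, and part of them is printed. Irf1, Foxo1, Bcl2 and Ifng were named after their values were seen. One gene past the threshold is counted but not reported here. The fit was tested on simulated data.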

Additional observations from a re-analysis of the deposited data

How the results depend on the processing

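Each of the 74 genes kept its direction in all 22 alternative settings. On each gene the 2 populations do not overlap, so leaving out 1 array could not turn its direction. Settings that alter only the estimate of error keep the change itself. In the 14 settings other than leaving out 1 array at a time, 18 of the 74 passed every time. The count of genes called was 119 with median scaling in place of quantile normalization, 42 with no detection filter, 212 without the PD-1+ population, 298 with the replicate block without the PD-1+ population and 229 with array weights. Median scaling moved the median change of all genes to -0.0990, and called changes are relative to it there. No background correction gave 111 and an offset of 50 gave 109. Leaving out 1 array at a time gave 0 to 212 genes. With the replicate block 80 genes were called, 57 of them shared, and the 17 lost are given with their blocked p beside each. With only the 4 arrays compared, 53 genes were called, and 36 of the 74 were among them. With no detection filter 29 of the 74 were called again. Other settings gave counts within 1.5 times the main one. Against LAG3+ cells, 1 gene passed with no filter, and leaving out 1 array at a time gave 0. Among genes near 0, median scaling gave -0.155 for Laptm5, -0.271 for Rps26, -0.0482 for Cd3e and -0.575 for Eef1a1, and the mean of detected probes gave -0.117 for Eef1a1. Leaving out 1 array gave these ranges of log2 change: -0.38 to 0.67 for Rps26, -0.0642 to 0.28 for Cd3e, -0.32 to 0.40 for Eef1a1, -0.18 to 0.14 for Cd96, -0.25 to 0.18 for Rpl23, -0.20 to 0.0695 for Mcam, -0.34 to 0.0791 for Cd8b1, -0.30 to 0.0369 for Cd52, -0.57 to 0.14 for Rps14, -2.25 to 0.96 for Hnrnpdl and -2.10 to 0.60 for Mterf4. The cause of these differences was not tested, except that leaving out an array leaves 1 in its population, which is then assumed to vary like the others. Array signal limits what can be called low, since dim genes are compressed by the offset.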

Other observations

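A further 138 genes, 71 higher and 67 lower in double-positive cells, passed when the PD-1+ arrays, whose replicates differed most, were left out of the fit. The genes named from them were picked after their values were seen. Among the higher were Axl, a receptor tyrosine kinase of the TAM family, at 5.86 and 4.17 in receptor-negative cells and 8.77 and 8.92 in double-positive cells (change 3.82, limma adjusted p = 0.0374 without the PD-1+ arrays and 0.0654 with them). Casp1, the protease that matures interleukin-1 beta, changed by 3.18 (0.0485 and 0.0627), the costimulatory ligand Cd70 was not detected in receptor-negative cells and was at least 5.67-fold higher (0.0448 and 0.250), and the chemokine receptor Cxcr6 changed by 1.76 (0.0457 and 0.200). Ldha, the lactate dehydrogenase chain of glycolytic cells, changed by 1.64 (0.0479 and 0.0960). Among the lower were Il6st, the gp130 receptor chain that Socs3 restrains, at a change of -2.16 (0.0377 and 0.0844), the Krüppel-like factor Klf7 at -3.48 (0.0138 and 0.0864) and Hexim1, an inhibitor of transcription elongation, at -3.81 (0.0377 and 0.0844).

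Clock genes were measured as a list of 19, of which 12 were tested, 10 were lower in double-positive cells and 0 passed, with a median of -0.567. Of all 7893 genes tested, 3980 were lower. Among the clock genes, the following 2 had the largest changes. Dbp, an output gene of the clock, changed by -2.70 (SE 1.14) and Per1, a repressor in its core, by -2.42 (SE 0.79).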
